A study of Homo sapiens with 6 samples.

Results

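The kinetochore is the protein assembly that ties each chromosome to the spindle in mitosis. Here 41 of its genes were followed, all chosen by symbol: the centromeric histone CENPA and its loader HJURP, 11 genes of the constitutive centromere network, the corona proteins CENPE and CENPF, the 10 genes of the KNL1, MIS12 and NDC80 complexes, 6 spindle checkpoint genes, the 4 genes of the chromosomal passenger complex, AURKA, both shugoshins and the 3 SKA genes. All 41 were among the 21850 genes listed in the count table, and all 41 were among the 13971 that passed the filter on low counts and were tested. RNA-seq was performed in MM.1S, a human multiple myeloma cell line. Both groups carried a lentiviral hairpin: shNT libraries (n = 3) came from cells with a scramble hairpin, and shPRKCN libraries (n = 3) from cells with a hairpin against PRKCN, the gene listed as PRKD3, a kinase of the protein kinase D family. All 6 libraries were taken on day 3. No source says that the replicates were separate cultures, so the p-values given here measure the spread between these libraries.

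At each centromere, nucleosomes that hold CENP-A recruit the constitutive centromere network, usually called the CCAN. In mitosis this base gathers the KNL1, MIS12 and NDC80 complexes, whose NDC80 arm binds microtubules. The checkpoint proteins sit on kinetochores that lack a proper attachment and hold back the anaphase-promoting complex through CDC20, while the passenger complex, built around Aurora B, releases wrong attachments. Shugoshins protect the cohesion of sister centromeres, and the SKA complex strengthens the grip on microtubules. Many of these genes are transcribed mainly in G2 and mitosis, and cell cycle homology region (CHR) and CCAAT elements near their start sites are known for this timing. Myeloma cells are malignant plasma cells, and unlike normal plasma cells they divide.

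Each library held 35625564 to 37730003 counts, and every member had 281 to 9975 counts in every library, so that none of the values below rests on a few counts. Levels are given as CPM, counts scaled to the library's total and its TMM factor, which lay between 0.992 and 1.01. Where genes are compared with one another, FPKM is used, which also divides by gene length. Genes counted as called had an edgeR quasi-likelihood adjusted p under 0.05 (Benjamini-Hochberg over all tested genes) and a log2 fold change beyond 0.58, the limits of the study. PRKD3 stood at 1272, 1298 and 1216 CPM in shNT and at 535, 491 and 527 CPM in shPRKCN libraries, a log2 fold change of -1.29 (SE 0.034; edgeR, Benjamini-Hochberg adjusted p = 8.2e-43), so the targeted gene followed the labels in all 6 libraries. The plasma cell markers SDC1 and CD38 were present, at 908, 871 and 909 and 37.4, 38.7 and 33.2 CPM in shNT, and 4 of 7 plasma cell markers were called lower, led by IRF4, XBP1 and TNFRSF17 (log2 fold changes -1.85, -1.28 and -1.13). Of 10 markers of other cells, 9 were listed in the count table and 4 had enough counts to be tested. Those listed among CD14, MS4A1, PAX5, COL1A1, ALB and EPCAM had 0 to 15 counts in each library. CD3E, a T cell receptor subunit, was called higher (1.40), and the endothelial marker PECAM1 and the globin HBB were called lower (-1.24 and -1.65). CD3E reached 30.9 CPM, not far below the 33.2 CPM of the lowest shNT library in CD38. The part of these markers in the results was not tested.

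Of the 41 genes, 32 were called lower in shPRKCN libraries, which is 78.0% of them, and 0 were called higher. In counts of genes, fell and rose mean called lower and called higher. No member had a positive log2 fold change. Of all tested genes 10.6% were called lower and 6.15% higher. Without the fold limit, 40 of the 41 were lower at an adjusted p under 0.05, against 27.8% of all tested genes. In each of the 41, the highest shPRKCN library had a lower CPM than the lowest shNT library, which was true of 29.8% of all tested genes. The median log2 fold change of the 41 was -0.84, beside 0.0012 over all tested genes, and 6.98% of tested genes lay at or below that median. Members ranged from -1.24 in NDC80 to -0.07 in NSL1, and 9 lay below -1. The 32 genes that fell kept 42.4% to 62.9% of their shNT level, and the other 9 kept 67.7% to 95.4%. The CPM of all 41 summed to 2515 ± 7.32 (SD, n = 3) in shNT and to 1458 ± 20.4 (SD, n = 3) in shPRKCN, 58.0% of the former. In bulk RNA, fewer cells in mitosis and less of these transcripts per cell cannot be told apart. The proliferation marker MKI67 moved with the set, from 741, 742 and 674 CPM to 291, 282 and 287 CPM, and its part in the result was not tested.

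**Figure D1:**
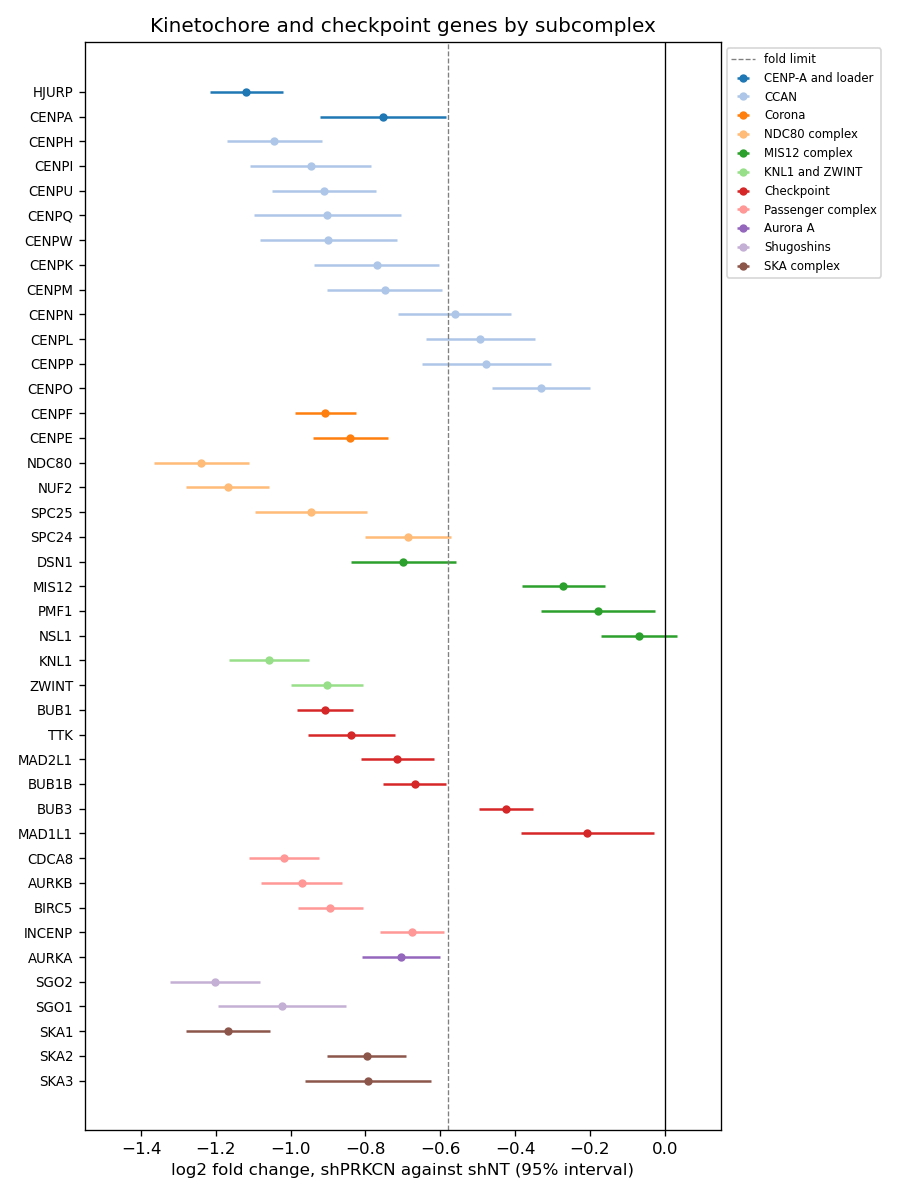
Log2 fold change of each of the 41 genes in shPRKCN against shNT (x axis) with its 95% interval, by subcomplex (y axis, colours); the dashed line is the fold limit. NDC80, at -1.24, lies farthest to the left, and NSL1, PMF1 and MAD1L1 lie nearest to 0.

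For 33 of the 41 genes a RefSeq promoter sequence (GRCh38.p14) was at hand, reaching from 250 bases before the start site to 50 after it. The promoters of 5 genes are shown from 100 bases before the start to 50 after, in the direction of transcription. CDCA8 (chr1:37692416-37692565, plus strand), BUB1 (chr2:110678014-110678163, minus strand) and NDC80 (chr18:2571457-2571606, plus strand) are shown because their transcripts fell and CHR letters lie close to the start. NSL1 (chr1:212791728-212791877, minus strand) and MAD1L1 (chr7:2232896-2233045, minus strand) are shown because they moved least in their complexes. Capitals mark the letters searched on either strand: for the CHR these are TTTGAA and its variants TTTAAA and TTCGAA, for the second element CCAAT itself, and for E2F sites TTCCCGCC, TTTCGCGC, TTTGGCGC and TTCGCGCC.
CDCA8: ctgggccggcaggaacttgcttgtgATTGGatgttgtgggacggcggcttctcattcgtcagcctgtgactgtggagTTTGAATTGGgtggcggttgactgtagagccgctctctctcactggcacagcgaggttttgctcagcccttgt
BUB1: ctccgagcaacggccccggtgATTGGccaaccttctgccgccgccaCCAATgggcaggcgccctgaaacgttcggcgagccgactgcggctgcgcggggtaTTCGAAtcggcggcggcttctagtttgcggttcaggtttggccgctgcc
NDC80: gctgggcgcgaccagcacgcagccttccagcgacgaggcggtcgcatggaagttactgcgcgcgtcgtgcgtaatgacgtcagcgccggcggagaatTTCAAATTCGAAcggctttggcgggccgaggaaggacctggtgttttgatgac
NSL1: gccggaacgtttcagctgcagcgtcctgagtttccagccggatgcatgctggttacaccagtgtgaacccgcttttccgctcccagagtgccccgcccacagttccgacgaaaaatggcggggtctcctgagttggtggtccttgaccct
MAD1L1: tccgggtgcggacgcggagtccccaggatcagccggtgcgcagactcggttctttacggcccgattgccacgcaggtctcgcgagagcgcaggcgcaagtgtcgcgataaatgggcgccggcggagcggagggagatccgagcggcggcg

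In CDCA8 the CHR letters run into a CCAAT read on the opposite strand, BUB1 has a pair of CCAAT letters upstream of its CHR, and in NDC80 the CHR letters occur side by side. NSL1 and MAD1L1 hold none of the letters in the stretch shown. CDCA8, BUB1 and NDC80 were picked for their letters, so the contrast between the sequences shown was set by that choice. DSN1 also fell, yet holds none of the letters in its whole window. CENPI fell and its window (chrX:101100808-101101107) holds none either, but that window lies inside the gene, which starts at 101098204. The outermost start of CENPI was therefore not searched. CENPU, CENPK, CENPQ, SKA2 and SPC24 fell without CHR letters in their windows. AURKB fell without CHR letters in windows that reach no further upstream than chr17:8210499, while its outermost start lies at 8210575. The SGO1 window, which holds CHR letters, also lies inside its gene (outermost start chr3:20186886). CENPI, AURKB and SGO1 are all among the 26 genes counted below. PMF1 and MIS12 were not called and hold CCAAT letters. Over the whole windows, CHR letters were found in 18 of the 26 genes that fell and have an entry (69.2%), and in 2 of the 7 that were not called and have one (28.6%). Those 2 were CENPN and CENPO. Among all tested genes with an entry the share was 23.5%, among all genes called lower 32.0%, and among all promoter windows of this length 25.1%. CCAAT letters were found in 18 of 26 (69.2%) and 4 of 7 (57.1%), against 43.4% of tested genes and 34.6% of all windows. Among all genes called lower the CCAAT share was 50.3%. CHR and CCAAT letters occurred together in 12 of the 26 (46.2%) and 1 of the 7 (14.3%). The share was 10.1% in tested genes and 16.8% in all genes called lower. E2F letters were found in 6 of 26 (23.1%) and 2 of 7 (28.6%), against 9.79% of tested genes and 4.90% of all windows. Their share was 11.5% among all genes called lower. In windows that start 100 bases upstream, the CHR share was 65.4% in the 26 genes and 28.6% in the 7. It was 20.1% in all genes called lower and 10.8% in tested genes. The CCAAT share was 53.8% in the 26 and 29.2% in tested genes there, and that of both together 30.8% and 3.11%. These are matches of letters and were not tested; the motifs overlap in places, as in CDCA8. CENPM, BUB3, CENPL, CENPH, AURKA, TTK, BIRC5 and KNL1 had no entry.

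**Figure D2:**
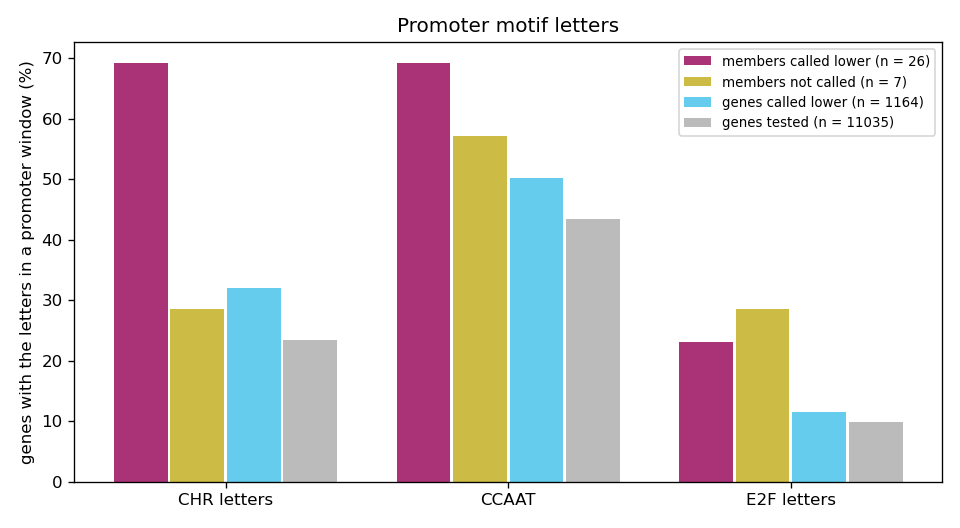
Share of genes (y axis, %) whose promoter window holds CHR, CCAAT or E2F letters (x axis), for members called lower, members not called, all genes called lower and all tested genes (bar colours). The CHR bar of the members called lower stands at 69.2%, against 23.5% in tested genes; the members not called are only 7.

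The transcripts of both genes of centromeric chromatin came down. HJURP, the chaperone that deposits CENP-A, stood at 84.2, 83.5 and 82.7 CPM in shNT and 39.8, 36.5 and 39.1 CPM in shPRKCN libraries. Its log2 fold change was -1.12 (SE 0.048; edgeR, Benjamini-Hochberg adjusted p = 4.6e-31). CENPA, the histone H3 variant of the centromere, stood at 18.2, 19.5 and 18.9 CPM against 11.1, 11.9 and 10.5 CPM, a log2 fold change of -0.75 (SE 0.084; edgeR, Benjamini-Hochberg adjusted p = 5.2e-12). The groups do not overlap in either gene, and within each group the libraries lie close together. CENPA shares 6.96% of its exon bases (GENCODE 29) with SLC35F6 on the same strand.

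In the CCAN, 7 of 11 genes fell and the median log2 fold change was -0.77. CENPH, which with CENPI, CENPK and CENPM forms one of the network's arms, had 36.6, 34.3 and 36.6 CPM in shNT and 17.4, 17.1 and 17.6 CPM in shPRKCN libraries. Its level in shPRKCN libraries was 48.5% of that in shNT (log2 fold change -1.04, SE 0.064; edgeR, Benjamini-Hochberg adjusted p = 3.6e-23). The rest of that arm followed, with log2 fold changes of -0.95 in CENPI, -0.77 in CENPK and -0.75 in CENPM. CENPI was the most even of the network in shPRKCN, at 11.4, 11.4 and 11.3 CPM, after 23.5, 21.3 and 20.9 CPM in shNT. CENPQ and CENPU, of the arm that meets the mitotic kinase PLK1, fell by 0.90 and 0.91 on the log2 scale, and CENPW, a histone-fold subunit, fell by 0.90. CENPU shares 11.7% of its exon bases with PRIMPOL on the opposite strand (log2 fold change -0.22).

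The other 4 CCAN genes did not pass the fold limit, although each had an adjusted p under 0.05. CENPN, which reads the CENP-A nucleosome, stood just inside the limit, at 25.9, 22.4 and 23.6 CPM against 15.9, 18.1 and 14.7 CPM (log2 fold change -0.56, SE 0.076). It was called lower when shNT replicate 2 or shPRKCN replicate 2 was left out. Its partner CENPL changed by -0.49. CENPO and CENPP, which belong to the same arm as CENPQ and CENPU, changed by -0.33 and -0.48. CENPO was at 27.5, 27.4 and 26.4 CPM in shNT and 21.1, 21.1 and 22.4 CPM in shPRKCN libraries, so the groups stayed apart by a small step. Exons of other genes lie across both: 27.0% of the exon bases of CENPO are shared with ADCY3 on the opposite strand, whose counts were 5577 to 8776 and whose log2 fold change was 0.50, and 38.0% of those of CENPP with IPPK (log2 fold change 0.20). CENPN shares 12.8% with CMC2 (-0.51). Whether the counting used strand is not given in the sources used here, so reads of such neighbours cannot be told apart from those of the CENP genes.

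**Figure D3:**
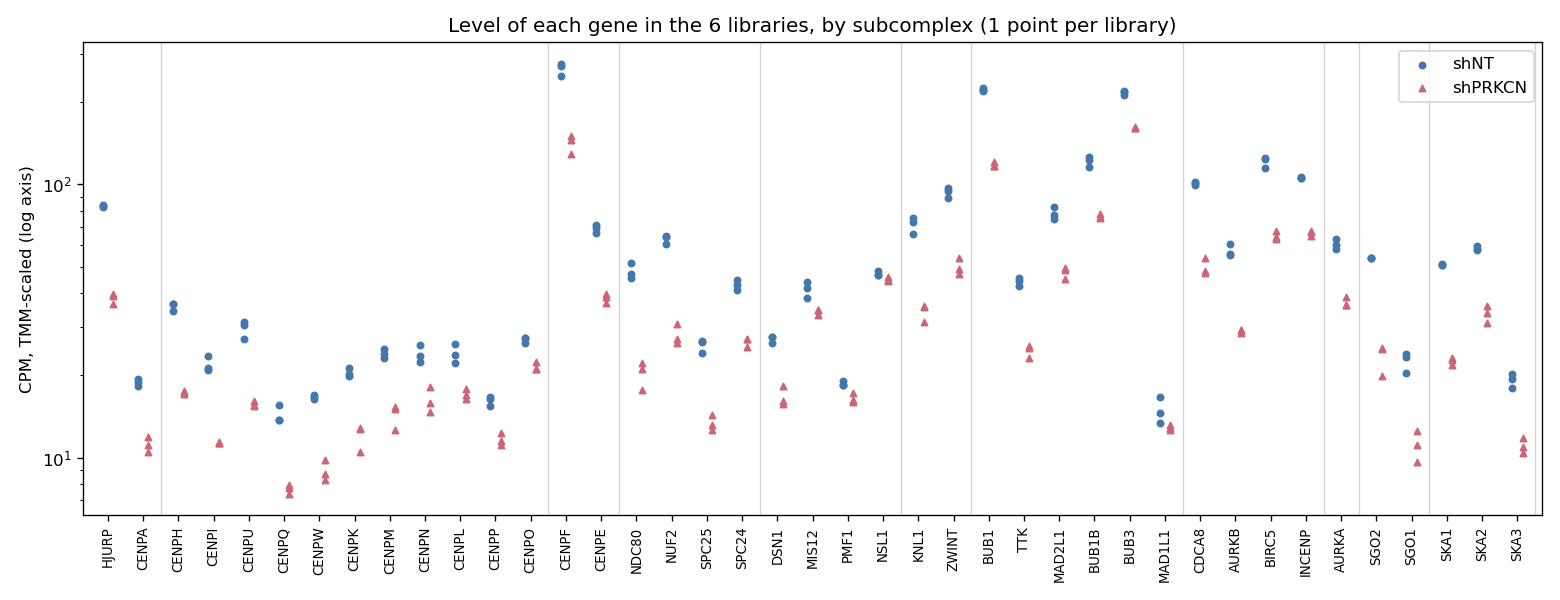
CPM (y axis, log scale) of each of the 41 genes (x axis, by subcomplex) in the 3 shNT (circles) and 3 shPRKCN (triangles) libraries, 1 point per library. In all 41 genes the triangles lie below the circles, by a wide gap in NDC80 and by a very narrow one in NSL1 and MAD1L1.

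Within the microtubule-binding core the 3 complexes differed in their values. All 4 genes of the NDC80 complex fell (median log2 fold change -1.06), as did both of the KNL1 complex (-0.98). In the MIS12 complex 1 of 4 was called lower and the median was -0.22. Without the fold limit, 3 of the 4 were lower at an adjusted p under 0.05. These medians of small groups were not tested against each other.

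NDC80, the subunit that touches the microtubule, changed most of all members. It was at 45.6, 46.9 and 51.7 CPM in shNT and 22.2, 17.7 and 21.2 CPM in shPRKCN libraries, with the lowest level in shPRKCN replicate 2. The log2 fold change was -1.24 (SE 0.064; edgeR, Benjamini-Hochberg adjusted p = 4.6e-27), and 42.4% of the shNT level was left. NUF2, with which NDC80 forms its outer dimer, was at 60.3, 64.2 and 64.8 CPM against 26.2, 27.1 and 30.9 CPM (-1.17, SE 0.056; edgeR, Benjamini-Hochberg adjusted p = 7.4e-29). In the inner dimer, which faces the chromosome, SPC25 changed by -0.95 and SPC24 by -0.69. SPC24 was at 40.97, 43.0 and 44.7 CPM in shNT and 27.2, 27.3 and 25.5 CPM in shPRKCN libraries, no library of one group reaching the other.

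The MIS12 complex links the CCAN to NDC80. Its subunit DSN1, a target of Aurora B, fell from 27.6, 26.3 and 27.6 CPM to 18.3, 15.8 and 16.1 CPM (log2 fold change -0.70, SE 0.07; edgeR, Benjamini-Hochberg adjusted p = 1.4e-13). MIS12 itself was at 38.5, 43.8 and 41.6 CPM and 33.3, 34.8 and 34.7 CPM, a log2 fold change of -0.27 (SE 0.056; edgeR, Benjamini-Hochberg adjusted p = 3.2e-05). PMF1 stood at 18.4, 18.4 and 19.02 CPM and 17.2, 16.2 and 15.9 CPM (-0.18, SE 0.077). The steps of MIS12 and PMF1 were smaller than any in the NDC80 complex, and the edgeR adjusted p of PMF1, 0.044 (Benjamini-Hochberg), became 0.085 with DESeq2. NSL1 was the only member with an adjusted p above 0.05. It measured 48.1, 46.5 and 46.5 CPM in shNT and 44.1, 45.9 and 44.7 CPM in shPRKCN libraries, so that the groups came within 1 CPM of each other. Its log2 fold change was -0.07, with a 95% interval from -0.17 to 0.03 (edgeR, Benjamini-Hochberg adjusted p = 0.26). MIS12 shares 9.53% of its exon bases with DERL2 on the opposite strand (log2 fold change 0.03), and PMF1 shares 23.3% with the readthrough gene PMF1-BGLAP.

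KNL1, the scaffold on which BUB1 and BUB3 dock, was at 75.0, 72.9 and 65.9 CPM in shNT and 35.5, 31.3 and 35.8 CPM in shPRKCN libraries. It kept 48.0% of its level (log2 fold change -1.06, SE 0.054; edgeR, Benjamini-Hochberg adjusted p = 2.5e-27). ZWINT, which binds KNL1 and recruits the dynein adaptors of the corona, fell by 0.90 on the log2 scale. The corona genes themselves also fell: CENPE, a plus-end kinesin, by 0.84 and CENPF, a large coiled-coil protein, by 0.91. CENPF was among the most counted members, at 276, 271 and 249 CPM in shNT and 150.0, 129 and 145 CPM in shPRKCN libraries.

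Of the 6 checkpoint genes 4 fell, and their median over all 6 was -0.69. BUB1, the kinase that marks centromeric H2A, had the highest FPKM of all members in shNT libraries, 58.5 ± 0.58 (SD, n = 3). In CPM it went from 224, 221 and 219.8 in shNT to 116, 117 and 121 in shPRKCN libraries. The libraries of a group hardly differed, and the log2 fold change was -0.91 (SE 0.037; edgeR, Benjamini-Hochberg adjusted p = 1.8e-32). TTK, the MPS1 kinase that starts checkpoint signalling, changed by -0.84. MAD2L1 (MAD2), which captures CDC20, changed by -0.72, and BUB1B (BUBR1), its partner in the inhibitory complex, by -0.67.

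BUB3 and MAD1L1 were the checkpoint genes that did not pass the fold limit. BUB3, the carrier of BUB1 and BUBR1, was at 218, 212 and 219.6 CPM in shNT and 161, 161 and 162 CPM in shPRKCN libraries. With a log2 fold change of -0.43 (SE 0.036; edgeR, Benjamini-Hochberg adjusted p = 1.3e-16) its groups were far apart for their spread, but the step was smaller than in BUB1. MAD1L1 (MAD1), the platform for MAD2, was at 14.6, 13.4 and 16.6 CPM and 12.6, 13.2 and 12.8 CPM. Its lowest shNT library, replicate 2, came within 1 CPM of the shPRKCN libraries. The log2 fold change was -0.21 (SE 0.089; edgeR, Benjamini-Hochberg adjusted p = 0.043), the adjusted p was 0.1 with DESeq2, and without shNT replicate 3 it was 0.33 at a log2 fold change of -0.12.

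All 4 genes of the passenger complex fell, with a median log2 fold change of -0.93. AURKB, the kinase, was at 55.6, 55.0 and 60.5 CPM in shNT and 29.4, 28.6 and 29.3 CPM in shPRKCN libraries (log2 fold change -0.97, SE 0.054; edgeR, Benjamini-Hochberg adjusted p = 2.6e-25). CDCA8 (borealin), which with survivin steers the complex to the centromere, was at 101, 99.2 and 102 CPM against 47.3, 53.8 and 48.2 CPM (-1.02, SE 0.047). They kept 51.0% and 49.4% of their shNT levels. BIRC5 (survivin) changed by -0.89, and INCENP, the scaffold that activates Aurora B, by -0.67, the smallest change of the 4. AURKA, the related kinase of spindle poles, fell from 60.0, 57.8 and 63.2 CPM to 36.1, 36.2 and 38.8 CPM (log2 fold change -0.71).

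The shugoshins had the largest median of the groups, -1.11. SGO2 was almost the same in all shNT libraries, at 53.6, 53.8 and 53.8 CPM, and stood at 25.1, 20.0 and 24.9 CPM in shPRKCN libraries, lowest in replicate 2. Its log2 fold change was -1.20 (SE 0.06; edgeR, Benjamini-Hochberg adjusted p = 1.5e-27). SGO1 was at 20.3, 23.3 and 24.0 CPM against 11.2, 9.63 and 12.5 CPM (-1.02, SE 0.085). Its exons share 17.7% of their bases with SGO1-AS1 on the opposite strand, which had 3 to 6 counts a library.

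In the SKA complex SKA1, which binds microtubules, was at 50.7, 50.9 and 50.7 CPM in shNT and 22.9, 23.1 and 21.8 CPM in shPRKCN libraries. The libraries of each group were tightly placed (log2 fold change -1.17, SE 0.056; edgeR, Benjamini-Hochberg adjusted p = 1.6e-28). SKA2 and SKA3 changed by -0.80 and -0.79.

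Compared per gene length, the members spanned from 1.53 FPKM in CENPP to 58.5 FPKM in BUB1 in shNT libraries. The median fell from 13.5 FPKM in shNT to 7.89 FPKM in shPRKCN. The gene lengths that counts and FPKM imply ran from 1180 bases in PMF1 to 15090 in NSL1, with 10521 in CENPP. Levels and shares set between genes depend on these lengths. In mean shNT CPM, CENPP (16.2) lay above CENPQ (14.4). Across the 41 genes, a higher shNT level went weakly with a larger decrease (Pearson r = -0.38 and Spearman rho = -0.33 between log2 FPKM in shNT and log2 fold change, n = 41). This is a description across genes, which are not independent replicates, and shNT libraries enter both quantities.

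Each gene's share of the summed FPKM of its subcomplex was compared for the 40 genes that have partners. In 22 of them the groups did not overlap, 13 higher and 9 lower in shPRKCN, and in 18 they overlapped. The smallest p of the exact permutation test, 3 libraries against 3, is 0.1, and every share without overlap has this p. No share could therefore pass 0.05, and the test cannot decide whether any share changed. In groups of 2 genes the shares mirror each other and are both counted, and shares within a complex always offset each other, so the count is a description. The count was 34 without shPRKCN replicate 1. There 3 libraries stand against 2 and separate more easily, so it cannot be set beside the 22.

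In the MIS12 complex, DSN1 made up 27.8, 26.0 and 27.0% of the summed FPKM in shNT and 21.9, 19.7 and 20.3% in shPRKCN libraries, while PMF1 went from 39.2, 38.6 and 39.3% to 43.7, 42.9 and 42.4% and NSL1 from 8.03, 7.61 and 7.53% to 8.75, 9.48 and 9.29%. Among the checkpoint genes BUB1 went from 38.9% ± 0.14 (SD, n = 3) to 33.8% ± 0.42 (SD, n = 3), BUB3 from 18.6% ± 0.34 (SD, n = 3) to 22.6% ± 0.086 (SD, n = 3) and MAD1L1 from 2.92% ± 0.33 (SD, n = 3) to 4.13% ± 0.096 (SD, n = 3). BUB1B and MAD2L1 kept shares that overlap between groups. In the NDC80 complex SPC24 held 19.2% ± 0.096 (SD, n = 3) and then 24.5% ± 1.4 (SD, n = 3), and NDC80 27.5% ± 0.81 (SD, n = 3) and then 23.9% ± 2.4 (SD, n = 3). In the SKA complex SKA1 and SKA2 went from 40.3% ± 0.5 (SD, n = 3) to 34.3% ± 1.8 (SD, n = 3) and from 44.6% ± 0.34 (SD, n = 3) to 49.0% ± 1.6 (SD, n = 3), in that order. INCENP, the scaffold of the passenger complex, went from 11.96% ± 0.37 (SD, n = 3) to 14.2% ± 0.66 (SD, n = 3). Transcript shares say nothing of protein amounts, which were not measured here.

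Genes around the 41 were counted from 3 further lists. Of 25 other kinetochore genes, 9 fell and 0 rose, with a median log2 fold change of -0.48. The changes of largest size were in HASPIN, the kinase that marks centromeric histone H3 for the passenger complex (-1.22), KIF18A, a kinesin that damps chromosome movements (-0.95), and CDC20, the target of the checkpoint (-0.94). CDC20 was at 98.1, 94.5 and 105 CPM in shNT and 50.8, 55.0 and 49.3 CPM in shPRKCN libraries. Without the fold limit 18 of the 25 were lower and 1, NDEL1, was higher.

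The anaphase-promoting complex is the ubiquitin ligase that the checkpoint restrains. Of 20 genes for its subunits, helpers and substrates, 5 fell and 0 rose, with a median of -0.16. The 5 were its inhibitor FBXO5 (-0.88), its substrate PTTG1 or securin (-0.84), its ubiquitin-conjugating enzymes UBE2C (-0.80) and UBE2S (-0.77), and separase, ESPL1 (-0.71). None is a structural subunit of the ligase. Without the fold limit 10 of the 20 were lower and 1 higher. The other 5 lower ones were the subunits CDC27 (-0.28), ANAPC15 (-0.29), ANAPC16 (-0.19) and ANAPC11 (-0.22) and the activator FZR1 (-0.15), and the higher one was the scaffold ANAPC1 (0.31). These genes, UBE2S, ESPL1 and NDEL1 were singled out after their values were seen.

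Of 20 cell cycle regulators, 10 fell and 0 rose, with a median of -0.61; without the fold limit 15 were lower and 3 higher. CCNA2 (cyclin A2, -1.49), MKI67 (-1.33) and CDK1, the kinase that drives entry into mitosis (-1.09), had the largest changes. CCNA2 was at 131, 131 and 126 CPM in shNT and 47.7, 43.0 and 47.9 CPM in shPRKCN libraries. CCNB1 (cyclin B1), the partner of CDK1 in mitosis, was inside the fold limit, at 117, 114 and 116 CPM against 78.4, 82.2 and 84.9 CPM (-0.50, SE 0.042). CDKN1A (p21), an inhibitor of cyclin-dependent kinases, was at 32.4, 29.4 and 30.8 CPM against 16.7, 16.1 and 16.1 CPM and fell as well (-0.92, SE 0.067; edgeR, Benjamini-Hochberg adjusted p = 2e-19).

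**Figure D4:**
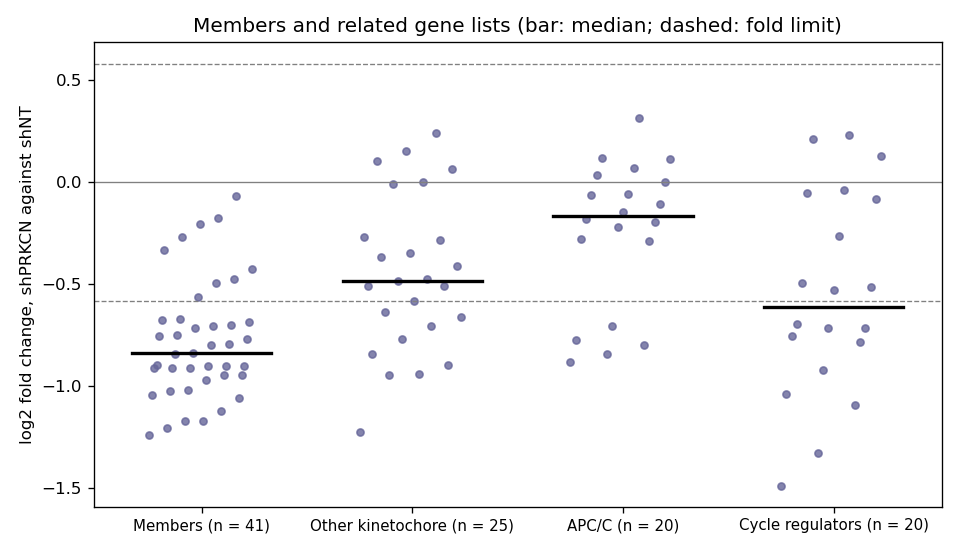
Log2 fold change in shPRKCN against shNT (y axis) of the 41 members and of the genes of 3 related lists (x axis), 1 point per gene, with the median as a bar and the fold limit dashed. The medians are -0.84 in the members, -0.48 in other kinetochore genes, -0.16 in genes of the anaphase-promoting complex and -0.61 in cycle regulators.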

How the data were processed

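RNA-seq of 6 MM.1S libraries was used, 3 shNT and 3 shPRKCN, grouped by the treatment given in the labels. Raw counts per gene were deposited by the authors, and FPKM for the same libraries, normalized by the authors to gene length and library total. The submitters' processing notes name FastQC, HISAT2, StringTie and the build GRCh38.p14; the counting program, annotation and strandedness are not given in the sources used here. The members and lists were chosen with earlier results of these data known.

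Counts were tested with edgeR 4.0.16 (R 4.3.3): filterByExpr, TMM scaling and the quasi-likelihood test, with Benjamini-Hochberg adjustment over all 13971 genes tested. Calls needed an adjusted p under 0.05 together with a fold beyond 0.58 on the log2 scale. SE was the log2 fold change divided by the root of F. DESeq2 1.42.0, which the study used, other scalings and filters, limma 3.58.1 on log2(FPKM + 1) or log2(FPKM + 0.1), glmTreat, a replicate block and leaving out each library were alternatives. Shares within subcomplexes used FPKM and exact two-sided permutation tests (SciPy 1.17.1). Within groups, chi-square per degree of freedom between libraries was 3.38 to 4.80, above sampling noise, so all 6 counted as separate libraries. All 41 members were named, with PRKD3, the 3 largest called changes of each further list, and CDC20, MKI67, CCNB1 and CDKN1A. Gene models for exon overlaps were GENCODE 29, positions and promoters RefSeq on GRCh38.p14. The fits were tested on simulated data.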

Additional observations from a re-analysis of the deposited data

How the results depend on the processing

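The 32 members called lower became 31 with limma on log2(FPKM + 1), which lost CENPK, and 28 when glmTreat tested against the fold limit itself, which lost BUB1B, CENPA, DSN1 and SPC24. The count was 32 with DESeq2, with each other scaling, without a filter and at a minimum of 10 counts, and 32 to 33 when 1 library was left out. No member was called higher in any of these. Without the fold limit 40 were lower. The members' median log2 fold change was -0.70 with limma on log2(FPKM + 1), with and without an FPKM filter, and -0.86 to -0.80 when 1 library was left out. No named gene reversed. Over all genes, limma on log2(FPKM + 1) called 648 lower and 315 higher (635 and 310 with the filter), glmTreat called 821 and 339, and dropping the fold limit gave 3877 and 3700. Dropping it gave 18 lower and 1 higher of the other kinetochore genes, 10 and 1 for the anaphase-promoting complex and 3 higher for cycle regulators. The number of members at an adjusted p under 0.05 was 38 to 40 under the alternatives other than glmTreat, the difference lying in PMF1 and MAD1L1. Shares without overlap were 23 to 34 of 40 when 1 library was left out, where the smaller groups separate more easily. With a replicate block 32 members were called lower and the median was -0.84; the adjusted p of MAD1L1 was 0.05 there, and no member changed its call. The numbers do not pair the libraries, since deviations of same-numbered libraries had r between -0.042 and 0.0038. Depth limits no member, and the number of libraries limits the permutation tests. The unstated strand limits members that share exon bases with counted neighbours on the opposite strand. The largest such overlaps were in CENPP and CENPO, followed by CENPN, CENPU and MIS12.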
